A study of Mus musculus with 6 samples.

Results

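Genes for the uptake of fatty acids and sterols, the return of sterols to the gut lumen and the synthesis of triglyceride were compared between the colons of Hnf4α mutant and control mice. The group holds 10 genes: Fabp1, Fabp2, Cd36, Scarb1, Npc1l1, Abcg5, Abcg8, Mogat2, Dgat1 and Dgat2. They were chosen by name for these roles, with earlier results of these data known. All 10 were found among the 18193 named genes of the arrays, by 17 of the 45037 probe sets tested with no filter on low signal. Under a filter that asked for a log2 signal of 5 or more on 3 arrays, 8 of the 10 passed, without Fabp1 and Abcg5. The 3 mutants carried loxP-flanked Hnf4α and Cre under the Villin promoter, which acts in the gut epithelium, so that Hnf4α was not targeted in stroma, muscle or blood cells. The 3 controls were littermates that the labels call wild type. By label, mutant replicates 2 and 3 were male, whereas mutant replicate 1 and every control were female. All were sacrificed at 12 months of age after ketamine and xylazine. Total RNA of the proximal colon from each mouse was hybridised to an Affymetrix mouse genome array of its own. The signal of each probe set is given on the log2 scale, on which a difference of 1 is a doubling.

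Enterocytes take up fatty acids and monoacylglycerol that digestion frees in the gut lumen. CD36 and SR-BI (encoded by Scarb1) bind lipid at the cell surface, NPC1L1 carries cholesterol inward, and the small cytosolic proteins encoded by Fabp1 and Fabp2 bind fatty acids inside the cell. MGAT2 (encoded by Mogat2) joins fatty acid to monoacylglycerol, DGAT1 and DGAT2 complete the triglyceride, and the paired transporter of ABCG5 and ABCG8 returns sterols to the lumen. Most of this traffic takes place in the small intestine. HNF4α is a nuclear receptor that activates many genes of lipid transport in liver and intestine.

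The state of the 6 arrays bears on every gene below. Hnf4a had log2 signals of 10.17, 10.09 and 10.15 in the mutants, against 12.23, 12.01 and 11.97 in the controls (log2 fold change -1.94 with a standard error, SE, of 0.10; adjusted p = 0.000788, limma). Xist lay between 5.03 and 5.32 in the mutants and between 9.94 and 10.96 in the controls, while 3 Y-linked genes lay between 5.35 and 8.12 in the mutants and between 2.75 and 4.01 in the controls. Mutant replicate 1, labelled female, thus held male RNA. Since all 3 mutants were male and all 3 controls female by RNA, effects of sex and of genotype cannot be told apart. The paper reports inflammation, immune cell infiltrates, crypt loss and crypt hyperplasia in the colon of older mutants. It calls the mutant colon that was profiled diseased. The part of this disease in the differences below was not tested. A group mean at or below 4.01, the highest Y-linked signal in the controls, which lack these genes, was taken as background. Markers listed for colonocytes and for small bowel gave a mixed picture. Car1, an abundant carbonic anhydrase of colonocytes, lay between 14.49 and 14.55 in the mutants and between 14.21 and 14.49 in the controls. Lct, the lactase of small bowel, lay near background at 3.77 to 3.89 in the mutants and 3.58 to 4.25 in the controls. Yet Slc5a1, listed for small bowel, lay between 9.91 and 10.01 in the mutants and between 9.87 and 10.43 in the controls. Aqp8, listed for colonocytes, ranged from 9.09 to 11.73 in the mutants and from 8.32 to 12.29 in the controls. Slc37a2, also listed for colonocytes, ranged from 10.99 to 12.72 in the mutants and from 7.29 to 11.73 in the controls. Car4, of the same list, lay between 8.84 and 9.19 in the mutants and between 11.45 and 12.29 in the controls. It was lower in mutants with an adjusted p of 0.00977 in limma. Ceacam20, Slc9a3 and Muc13 also lay wholly below the controls, while Slc26a3 overlapped. Control replicate 3 was the lowest of the 6 arrays for the colonocyte markers Car1, Slc26a3, Aqp8 and Slc37a2. For Car4, Slc9a3 and Muc13 it was the highest. The part of these markers in the differences of the 10 genes was not tested. Mutant replicate 2 was poor in stromal RNA. Relative to the control mean, the median of 12 smooth muscle markers was -4.02 there, against -0.29 and -0.46 in mutant replicates 1 and 3, and the medians of 10 endothelial and 11 macrophage markers were -1.62 and -2.46. The median of 12 gut epithelium markers was 0.16, 0.20 and 0.19 in mutant replicates 1, 2 and 3, and lay between -0.06 and 0.06 in the controls. In such bulk RNA, fewer cells of a type and less RNA per cell cannot be told apart.

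The start sites of Fabp2, Fabp1 and Abcg5 are shown because Fabp2 had the widest difference of the 10 genes, Fabp1 is its closest counterpart in function, and Abcg5 shares its upstream DNA with Abcg8. RefSeq windows (GRCm38.p6), each of 250 bases before and 50 bases after a start site, were matched for 6 of the 10 genes. Both strands were searched for CAAAGTNCA, letters bound by HNF4 proteins, AGATAA, bound by GATA factors, and TTTATNG, bound by CDX factors, and no match overlapped another in the windows shown. The HNF4 letters occurred in 1.41% of 32851 windows of all genes, the GATA letters in 11.2% and the CDX letters in 10.9%. Capitals mark each match.
Fabp2, chr3:122894822-122895121, plus strand: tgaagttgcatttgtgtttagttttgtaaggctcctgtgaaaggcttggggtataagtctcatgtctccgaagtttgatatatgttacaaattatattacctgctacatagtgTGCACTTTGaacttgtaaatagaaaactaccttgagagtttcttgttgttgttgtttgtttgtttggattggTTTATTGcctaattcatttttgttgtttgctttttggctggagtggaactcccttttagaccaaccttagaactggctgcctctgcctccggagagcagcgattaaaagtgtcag
Fabp1, chr6:71199629-71199928, plus strand: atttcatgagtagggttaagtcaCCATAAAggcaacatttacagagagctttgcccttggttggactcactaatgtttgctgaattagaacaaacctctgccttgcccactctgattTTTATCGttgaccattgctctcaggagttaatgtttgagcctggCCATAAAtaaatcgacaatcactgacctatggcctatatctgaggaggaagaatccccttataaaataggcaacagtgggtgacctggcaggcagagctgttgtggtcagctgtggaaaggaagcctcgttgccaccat
Abcg5, chr17:84682962-84683261, minus strand: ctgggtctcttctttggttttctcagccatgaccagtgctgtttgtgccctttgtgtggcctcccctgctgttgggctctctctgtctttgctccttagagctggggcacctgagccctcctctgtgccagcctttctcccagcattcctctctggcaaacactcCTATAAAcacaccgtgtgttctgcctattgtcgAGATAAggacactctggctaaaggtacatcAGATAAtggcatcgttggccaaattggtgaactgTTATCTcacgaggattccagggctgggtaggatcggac
The window of Fabp2 held the only match to the HNF4 letters among the 6 genes, read on the opposite strand as TGCACTTTG and beginning 137 bases before the start, and a CDX match beginning 65 bases before it. The window of Fabp1 held 3 CDX matches and no HNF4 match. In that of Abcg5, 3 GATA matches and 1 CDX match were found. Abcg8 is read in the opposite direction from Abcg5, and 209 bases of their windows are the same DNA, with these 4 matches in it. The windows of Cd36 and Npc1l1 held no match to any of the 3 motifs. A match describes letters and not a bound site, and the absence of one concerns this window alone.

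None of the 10 genes was called, where a call is an adjusted p under 0.05 in limma. Of all named genes, 0.484% were called higher and 0.396% lower. The widest differences were those of Fabp2, with 5.55-fold lower signal in mutants, Dgat2, with 3.04-fold higher signal, Cd36, with 2.25-fold lower signal, and Mogat2, with 1.79-fold higher signal. With no adjustment, 6 of the 10 had p of 0.05 or less in limma, Dgat2 and Mogat2 with higher and Fabp2, Cd36, Npc1l1 and Dgat1 with lower signal in mutants, against 16.2% of all named genes. SAM, the test that the methods name, gave 2 higher and 3 lower at that p, without Dgat1, against 15.5% of all named genes in either direction. The 3 mutants lay above the 3 controls for Dgat2 and Mogat2 and below them for Fabp2, Cd36 and Npc1l1, as they did for 14.5% and 8.86% of all named genes. The 10 log2 fold changes had a median of -0.19 against 0.051 over all named genes, and their median size, without sign, was 0.57 against 0.15. Because the 10 genes were chosen with earlier results of these data known, these comparisons with all named genes are no test of the group.

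**Figure D1:**
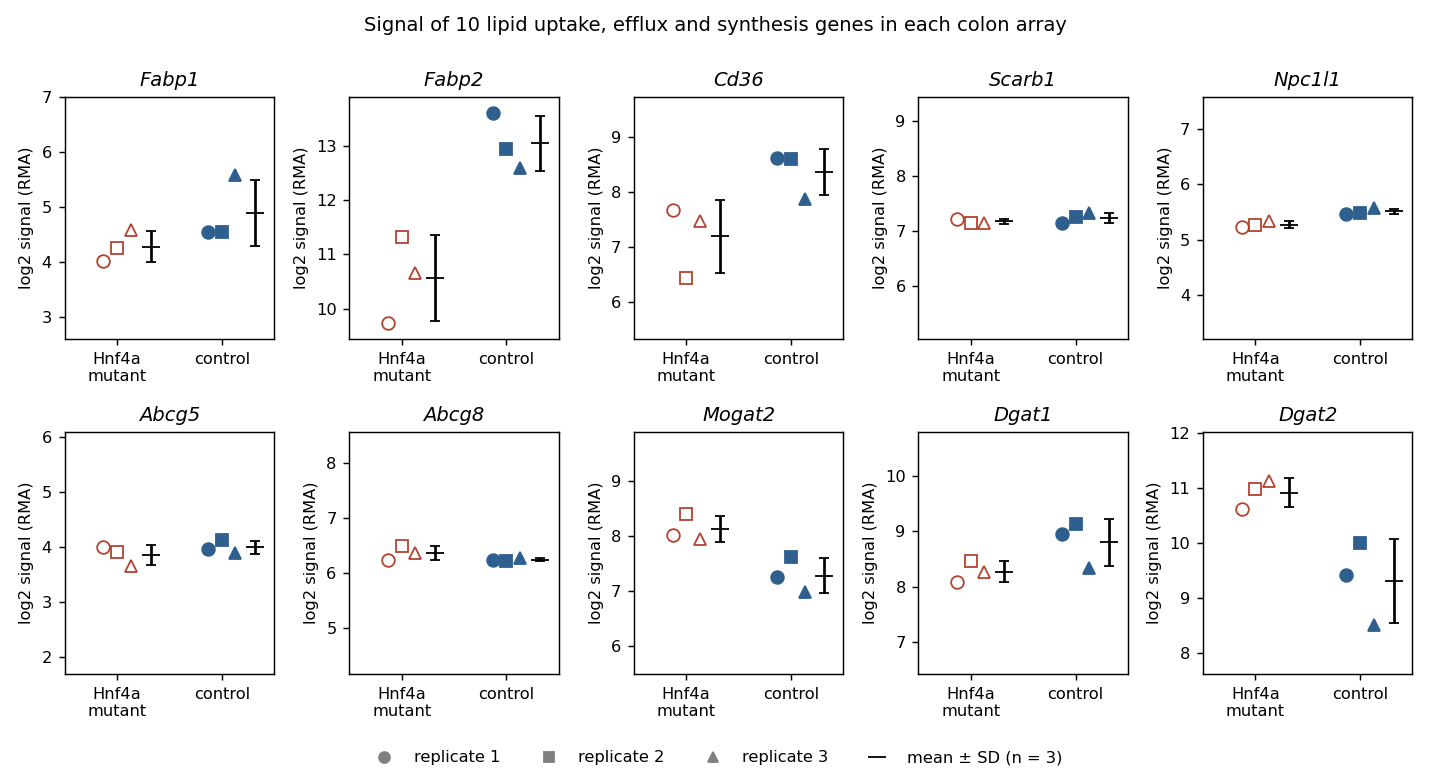
Log2 signal (vertical axis) of each of the 10 genes in the 3 mutant arrays (open symbols) and the 3 control arrays (filled symbols), with mean ± SD beside each group; symbol shape gives the replicate, and panels have their own ranges. Mutants lie apart from controls for Fabp2, Cd36, Npc1l1, Mogat2 and Dgat2, while the groups overlap for Fabp1, Scarb1, Abcg5, Abcg8 and Dgat1.

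Fabp2, the intestinal fatty acid binding protein, gave 9.74, 11.31 and 10.65 on the log2 scale in mutant replicates 1, 2 and 3, against 13.60, 12.94 and 12.58 in control replicates 1, 2 and 3. Every mutant lay below every control, and the highest mutant was the array poor in stroma. The means were 10.57 ± 0.79 in mutants and 13.04 ± 0.51 in controls (SD, n = 3 each), a log2 fold change of -2.47 (SE 0.42, 95% confidence interval -3.47 to -1.47, adjusted p = 0.0730). Only 37 of the 18193 named genes had a lower log2 fold change. The signal remained far above background in each mutant. The gene was called when arrays were weighted by their quality (log2 fold change -2.51, adjusted p = 0.0365) and when each array was set relative to its gut epithelium markers (-2.64, adjusted p = 0.0405). Over all alternatives its adjusted p lay between 0.0365 and 0.255, and its log2 fold change between -2.84 and -2.06. Of 8 colonocyte markers, 4 lay wholly below the controls, beside 8.86% of all named genes, and Car4 was called lower. Their summed signal was 0.808, 1.03 and 0.998 times the control mean in mutant replicates 1, 2 and 3. Of these, replicates 2 and 3 lay within the control range of 0.851 to 1.1. The median deviation of the same 8 markers from their control means was -0.77, -0.27 and -0.31 in the mutants, against 0 to 0.21 in the controls. By that measure every mutant lay below every control. Of the small bowel markers, Alpi and Apoa4 lay wholly below the controls. Lct, Rbp2, Slc5a1, Slc2a5 and Treh overlapped between the groups, and none of the small bowel markers was called. The summed signal of this list was 0.59, 0.769 and 0.62 times the control mean in the mutants, against 0.782 to 1.31 in the controls. Its median deviation overlapped, at -0.34, -0.13 and -0.46 against -0.23 to 0.14. The listed name Sis was matched to Pdgfb, a different gene, which also overlapped and is counted in these values. The part of absorptive cell markers in the Fabp2 difference was not tested.

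Fabp1, the liver-type fatty acid binding protein that enterocytes also make, was weakly detected. By its more intense probe set the mutants had 4.02, 4.25 and 4.58, against 4.54, 4.54 and 5.59 in the controls. The groups overlapped, and control replicate 3 stood above the other arrays. The log2 fold change was -0.61 (SE 0.30, adjusted p = 0.443), and it was -0.26 without control replicate 3. The other probe set gave 3.51, 3.19 and 4.03 in the mutants, against 4.30, 4.14 and 6.01 in the controls, a log2 fold change of -1.24 (SE 0.50, adjusted p = 0.368). The mutant mean of that probe set, 3.58, was at background, so that this difference is limited from below.

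Cd36, the scavenger receptor and fatty acid translocase of the cell surface, had log2 signals of 7.67, 6.44 and 7.46 in the mutants, against 8.61, 8.60 and 7.87 in the controls. Mutant replicate 2 was the lowest array and control replicate 3 the lowest of the controls. The log2 fold change was -1.17 (SE 0.35, 95% confidence interval -2.01 to -0.33, adjusted p = 0.255). A further probe set gave -1.28 (SE 0.28, adjusted p = 0.139), while the dimmest, whose mutant mean of 3.91 was at background, gave -0.37. Cd36 is also made by endothelium, macrophages and adipocytes. Summed signals of 10 endothelial markers were 0.790, 0.273 and 0.746 times the control mean in mutant replicates 1, 2 and 3, against 0.959 to 1.05 in the controls, with 9 of the 10 wholly below the controls. Those of 11 macrophage markers were 0.767, 0.302 and 0.986 times, against 0.843 to 1.17 in the controls, with 2 wholly below and 2 wholly above. Those of 8 adipocyte markers were 0.845, 0.587 and 0.640 times, against 0.734 to 1.14 in the controls, with 1 wholly below and 1 wholly above. Over all named genes, 8.86% lay wholly below and 14.5% wholly above. None of these endothelial, macrophage and adipocyte markers was called or at background in all 6 arrays, and their part in the Cd36 difference was not tested. Without mutant replicate 2 the log2 fold change was -0.80 (adjusted p = 0.380).

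Scarb1 encodes a receptor for high density lipoprotein that also binds dietary lipid. Its log2 signals were 7.23, 7.15 and 7.15 in the mutants, against 7.15, 7.26 and 7.34 in the controls. The groups overlapped within a range of 0.19, and the log2 fold change of -0.07 had a 95% confidence interval of -0.30 to 0.15. The other 2 probe sets gave -0.08 and -0.05.

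Npc1l1, the cholesterol importer of the brush border and the target of ezetimibe, had low and tight signals. They were 5.22, 5.27 and 5.33 in the mutants, against 5.47, 5.49 and 5.57 in the controls. The groups did not overlap, yet the difference was small, with a log2 fold change of -0.24 (SE 0.09, 95% confidence interval -0.45 to -0.03, adjusted p = 0.341). It was -0.40 (adjusted p = 0.135) relative to gut epithelium markers.

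Abcg5 was not detected above background in either group. Its log2 signals were 4.0, 3.91 and 3.65 in the mutants, against 3.97, 4.12 and 3.89 in the controls, with means of 3.85 and 3.99. Abcg8, its partner in the sterol exporter, was detected, with 6.24, 6.50 and 6.37 in the mutants, against 6.23, 6.22 and 6.28 in the controls. The Abcg8 groups overlapped, with a log2 fold change of 0.13 (95% confidence interval -0.11 to 0.37, adjusted p = 0.607) that turned to -0.04 relative to gut epithelium markers. Since Abcg5 was at background, its log2 fold change of -0.14 gives no measure of the exporter.

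Dgat2, the acyltransferase of the final step that is abundant in liver and fat, had log2 signals of 10.63, 10.99 and 11.13 in the mutants, against 9.43, 10.01 and 8.51 in the controls. Every mutant lay above every control, and the controls spread more widely than the mutants, with control replicate 3 the lowest. The means were 10.92 ± 0.26 in mutants and 9.31 ± 0.76 in controls (SD, n = 3 each), a log2 fold change of 1.60 (SE 0.36, 95% confidence interval 0.75 to 2.46, adjusted p = 0.147). Only 60 of the 18193 named genes had a higher log2 fold change. The other probe set gave 10.20, 10.70 and 10.70 in the mutants, against 8.91, 9.58 and 8.18 in the controls, with a log2 fold change of 1.64 (SE 0.34, adjusted p = 0.121). Without control replicate 3 the difference was 1.20 (adjusted p = 0.178), and without control replicate 2 it was 1.95 (adjusted p = 0.0563).

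Mogat2 had log2 signals of 8.01, 8.39 and 7.95 in the mutants, against 7.25, 7.61 and 6.98 in the controls. The groups did not overlap, and as for Dgat2 the controls ran from replicate 3, the lowest, to replicate 2, the highest. The log2 fold change was 0.84 (SE 0.19, 95% confidence interval 0.38 to 1.30, adjusted p = 0.152), with 309 named genes above it. In the RefSeq gene order Dgat2 and Mogat2 stand side by side on chromosome 7 with 0 protein-coding genes between them. The 3 protein-coding genes on either side, Thap12, Wnt11, Uvrag, Map6, Serpinh1 and Gdpd5, had log2 fold changes between -0.87 and -0.01, none of them called.

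Dgat1, the other acyltransferase of the final step of triglyceride synthesis and unrelated to DGAT2 in sequence, had log2 signals of 8.08, 8.46 and 8.27 in the mutants, against 8.95, 9.13 and 8.33 in the controls. Control replicate 3 lay within the mutant range, so that the groups overlapped. The log2 fold change was -0.53 (SE 0.22, 95% confidence interval -1.05 to -0.01, adjusted p = 0.377), and it was -0.77 (adjusted p = 0.190) without control replicate 3. The dimmer probe set gave -0.03 (SE 0.12). The probe sets of Dgat1 thus disagreed in the size of the difference. Control replicate 3 had the lowest control signal for Dgat1, Dgat2, Mogat2, Fabp2, Cd36 and Abcg5 and the highest for Fabp1, Scarb1, Npc1l1 and Abcg8.

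**Figure D2:**
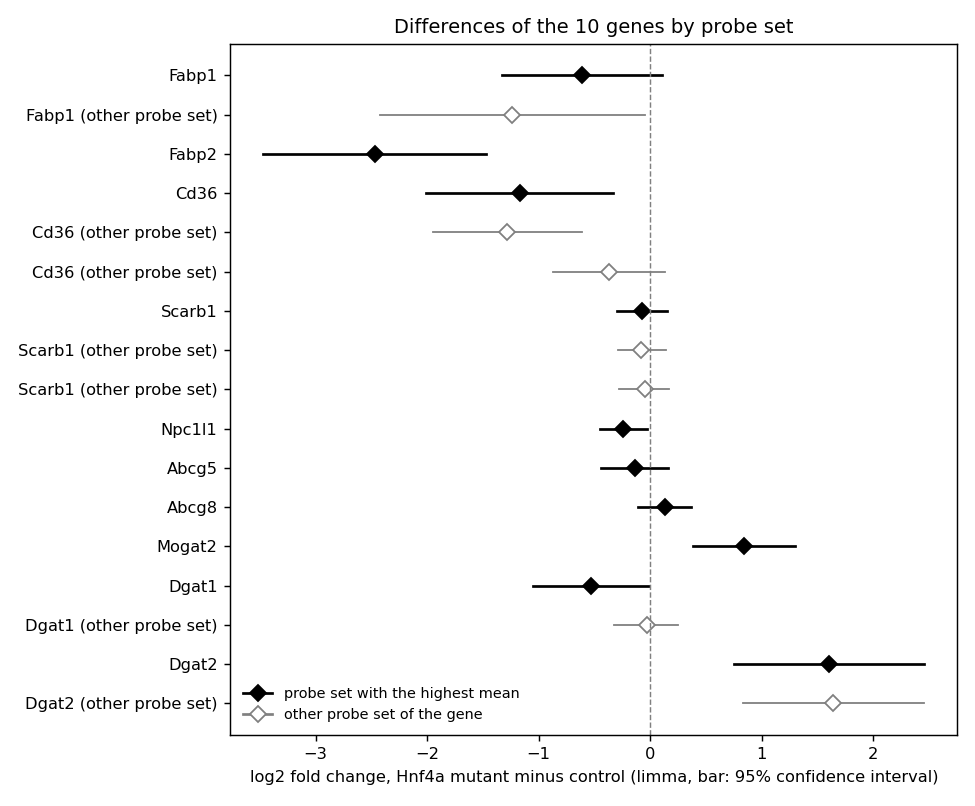
Log2 fold change of mutant minus control (horizontal axis; diamonds, limma estimate; bars, 95% confidence interval) for the 17 probe sets of the 10 genes, with filled diamonds for the probe set with the highest mean. The 2 probe sets of Dgat2 lie together at 1.60 and 1.64, whereas those of Dgat1 lie at -0.53 and -0.03.

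Functional pairs were then compared within each array, so that the difference between 2 genes could be set between the groups. With 3 mice against 3 an exact permutation test gives no two-sided p below 0.1, and 4 pairs were tested. The difference of Dgat2 minus Dgat1 was 2.55, 2.53 and 2.86 in the mutants, against 0.48, 0.88 and 0.18 in the controls, a shift of 2.13 on the log2 scale or 4.38-fold (exact permutation p = 0.1, 0.2 after Benjamini-Hochberg adjustment). It was the most even of the differences among mutants, with an SD of 0.19, and it lay between 1.97 and 2.32 with any single array left out. Mogat2 minus Dgat2 was -2.62, -2.60 and -3.18 in the mutants, against -2.18, -2.40 and -1.53 in the controls, a shift of -0.76 (exact permutation p = 0.1, adjusted 0.2). Fabp1 minus Fabp2 overlapped between the groups (shift 1.86, exact permutation p = 0.2, adjusted 0.267). The fourth pair, Abcg5 minus Abcg8, gives no measure, because Abcg5 was at background in both groups.

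**Figure D3:**
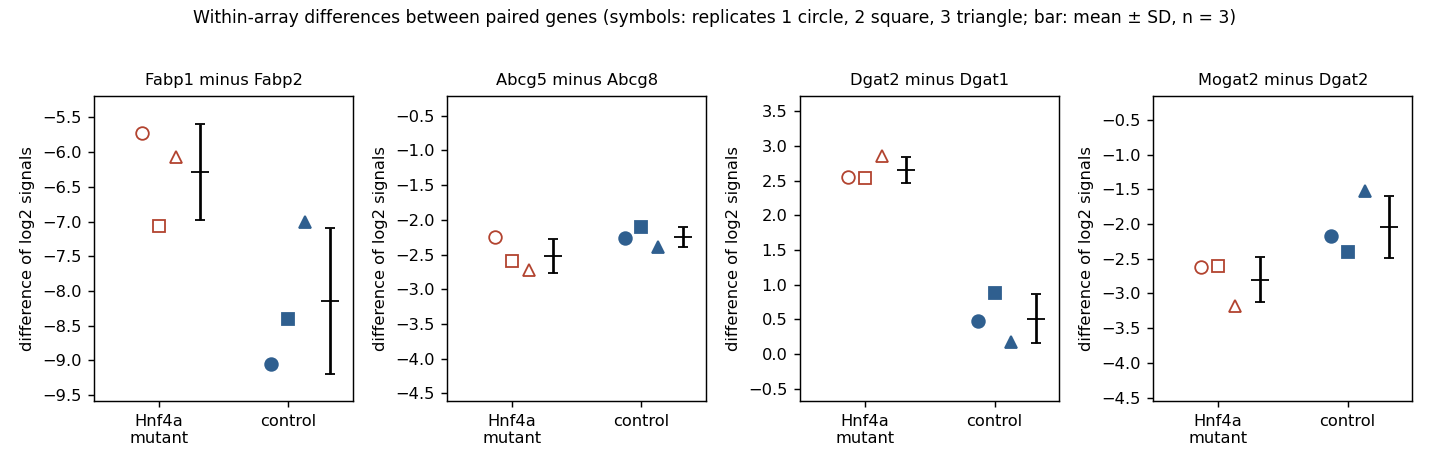
Difference of log2 signals between paired genes within each array (vertical axis; open symbols, mutants; filled symbols, controls; bars, mean ± SD, n = 3). The mutants lie between 2.53 and 2.86 for Dgat2 minus Dgat1, all above the controls at 0.18 to 0.88, and the panel of Abcg5 minus Abcg8 rests on an Abcg5 signal at background.

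Other genes of the same route were taken from 4 lists, in which 78 of 89 listed genes were matched to a probe set. Among the 78, Tm6sf2 and Aadac fell and no gene was called higher in limma with no array weights, beside 0.396% called lower and 0.484% called higher over all named genes. Unadjusted, at p of 0.05 or less, limma gave 10 higher and 13 lower and SAM 9 higher and 12 lower of the 78, beside 16.2% and 15.5% of all named genes in either direction. The log2 fold change was above 0 for 35 and below 0 for 43, and its median was -0.06, against 0.051 over all named genes, of which 7209 of 18193 lay below 0. Tm6sf2, a membrane protein needed for lipid loading of lipoproteins, had 4.69, 5.14 and 4.62 in the mutants, against 6.63, 7.42 and 6.92 in the controls, a log2 fold change of -2.17 (SE 0.23, adjusted p = 0.0174). Aadac, a lipase-like deacetylase of the endoplasmic reticulum, had 5.06, 4.94 and 4.12 in the mutants, against 9.82, 10.31 and 8.32 in the controls (log2 fold change -4.78, SE 0.51, adjusted p = 0.0184). Both fell in all 3 mutants, and neither was called without control replicate 1 (adjusted p = 0.0606 for Tm6sf2 and 0.116 for Aadac) or without mutant replicate 3 (0.102 and 0.0990). Tm6sf2 was not called without control replicate 3 or mutant replicate 1 either.

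Of 15 genes of chylomicron assembly and lipases, 11 had a log2 fold change below 0 (median -0.24), as did 7209 of all 18193 named genes. Tm6sf2 was the call among the 15. Apob, the structural protein of chylomicrons, had 6.01, 8.11 and 7.42 in the mutants, against 10.40, 10.15 and 10.15 in the controls. All mutants lay below the controls, with a log2 fold change of -3.06 (SE 0.48, adjusted p = 0.0602), and the gene was called without mutant replicate 1 (-2.47, adjusted p = 0.0234) or mutant replicate 2 (-3.52, adjusted p = 0.0396), with array weights (adjusted p = 0.0248) and relative to gut epithelium markers (adjusted p = 0.0324). With any other array left out its adjusted p lay between 0.0784 and 0.248. Lipg, endothelial lipase, had 8.08, 9.25 and 8.98 in the mutants, against 7.56, 8.03 and 6.82 in the controls (1.30, SE 0.39, adjusted p = 0.253).

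Of 29 genes of triglyceride synthesis, droplets and lipolysis, 18 had a log2 fold change above 0 (median 0.09). So did 10984 of all 18193 named genes (median 0.051). Aadac alone of the 29 was called. Gpat3 and Gpam, acyltransferases of the first step from glycerol phosphate, had 0.58 (SE 0.10, adjusted p = 0.0825) and 0.56 (SE 0.11, adjusted p = 0.0979). Gpat3 lay between 7.93 and 8.16 in the mutants and between 7.40 and 7.56 in the controls. Plin5, a lipid droplet protein, had 0.56 (SE 0.11, adjusted p = 0.0979), with 6.26 to 6.35 in the mutants and 5.60 to 5.89 in the controls, and it was called higher with array weights (0.61, adjusted p = 0.0388). Mogat1, a relative of Mogat2, had 0.47 (adjusted p = 0.252), with control signals of 3.93 to 4.06 around background. The mutants stood above the controls for each of these 4 genes, which were named for their small p. In the whole list they did so for 5 of the 29 genes, beside 14.5% of all named genes.

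Of 18 genes of fatty acid uptake, activation and binding none was called (median 0.08). Unadjusted, at p of 0.05 or less, limma gave 3 higher and 4 lower of the 18, and SAM 2 higher and 4 lower, beside 16.2% and 15.5% over all named genes. Slc27a2, a very long chain acyl-CoA synthetase, had 4.72, 5.52 and 5.38 in the mutants, against 8.75, 8.74 and 5.77 in the controls (-2.55, SE 0.78, adjusted p = 0.266). Control replicate 3 lay close to the mutants, and without it Slc27a2 was called (-3.54, adjusted p = 0.00903). Fabp4, the fatty acid binding protein of adipocytes and capillaries, had 10.20, 9.37 and 9.53 in the mutants, against 11.25, 10.81 and 10.43 in the controls (-1.13, SE 0.28, adjusted p = 0.173).

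Of 16 genes of sterol uptake, efflux and esterification, 15 had a log2 fold change below 0 (median -0.24), as did 7209 of all 18193 named genes, and none was called. Unadjusted, at p of 0.05 or less, limma gave 1 higher and 3 lower of the 16, and SAM 1 higher and 2 lower, beside the same 16.2% and 15.5%. Lrp1, a large endocytic receptor abundant in stroma, had 8.07, 6.61 and 8.02 in the mutants, against 9.39, 9.23 and 9.35 in the controls (-1.76, SE 0.37, adjusted p = 0.127), and was lowest in mutant replicate 2. Without that array it was called (-1.28, adjusted p = 0.0154). Anxa2, an annexin, was the single gene of this list with a positive value (0.44, adjusted p = 0.254).

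**Figure D4:**
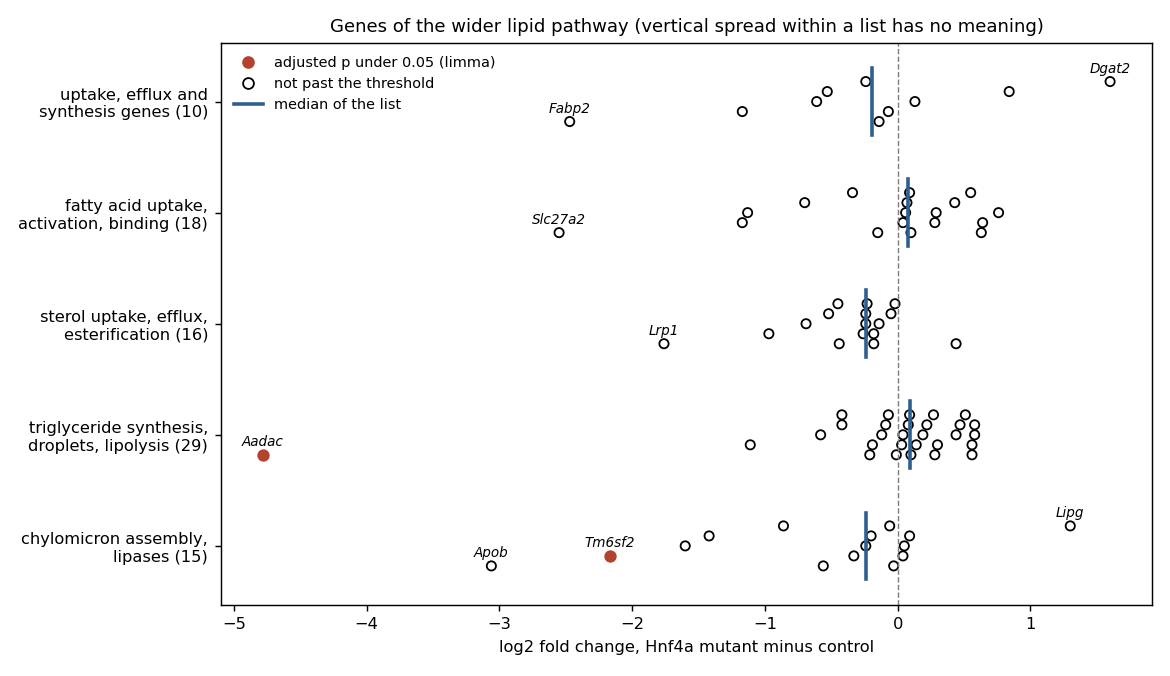
Log2 fold change of mutant minus control (horizontal axis) for the 10 genes and for the 4 lists of the wider lipid pathway; each circle is a gene, filled where the adjusted p was under 0.05, and vertical bars are list medians. Tm6sf2 at -2.17 and Aadac at -4.78 are the filled circles, and the 10 genes run between -2.47 for Fabp2 and 1.60 for Dgat2.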

How the data were processed

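Arrays of 3 Hnf4α mutant and 3 control colons were compared, 1 array per mouse. The authors had normalized them by RMA, and the deposited values are log2 signals, used unchanged; RMA equalises the arrays' distributions, so that a shift common to all genes is removed. The version of RMA was not given in the sources used here. The 64 control probe sets were dropped and the other 45037 were fitted in limma 3.58.1 (R 4.3.3), mutant minus control, with p-values adjusted over all of them by Benjamini-Hochberg and a call at an adjusted p under 0.05. Symbols came from the platform annotation, where 34945 probe sets had 1 symbol, 932 several and 9160 none; a gene was represented by the probe set with the highest mean among those with 1 symbol. Of the wider lists, genes called and then those with the smallest p were named, 12 in all. The SAM test that the methods name (p of 0.05 or less) gives no SE and was rerun as an alternative, beside array weights, limma-trend, a filter (log2 signal of 5 or more on 3 arrays), centring of arrays, a replicate block, X and Y genes left out, other probe sets and each array left out. The fit was tested on simulated data. The members and lists were chosen with earlier results of these data known. Precision is limited by 3 arrays a group.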

Additional observations from a re-analysis of the deposited data

How the results depend on the processing

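Leaving other probe sets aside, the 10 genes gave 133 log2 fold changes under the alternatives. Of these, 130 kept direction and side of the threshold, Fabp2 passed it under the 2 settings described, and Abcg8 turned to -0.04 when arrays were centred on gut epithelium markers. That centring moved the median of all probe sets by -0.16, and the calls over all probe sets, 137 higher and 102 lower as reported, became 115 higher and 219 lower, so that 57.3% of calls as reported and 34.4% after centring were higher. No gene of the 10 was called higher in any fit with adjusted p. The number called lower was 1 with array weights, 1 relative to gut epithelium and 0 otherwise. With no adjustment, limma at p of 0.05 or less gave 2 higher and 4 lower of the 10, 23 genes of the 4 wider lists and 5853 probe sets, while SAM gave 2 and 3, 21 and 5543. Against 239 called probe sets and 2 called genes of the wider lists, array weights gave 599 and 4. With each array left out in turn the counts lay between 39 (without control replicate 1) and 336 (without control replicate 2) probe sets and between 0 (without control replicate 1 or mutant replicate 3) and 4 (without mutant replicate 2) genes of the wider lists, and 0 of the 10 genes. Same-numbered arrays correlated at -0.025, 0.25 and -0.15 in their deviations from the group means, and only replicate 2 matched its own number best. With 3 arrays a group these values cannot show whether same-numbered arrays were paired. The replicate block left 62 probe sets, the same 2 genes of the wider lists and none of the 10 (Fabp2 adjusted p = 0.145). Leaving out single arrays gave 1.41 to 2.44 for Fabp1 minus Fabp2 and -0.94 to -0.51 for Mogat2 minus Dgat2. Abcg5 and the dimmer probe sets of Fabp1 and Cd36 lay too near background to measure how far the mutants were lower.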
